A study of Mus musculus with 22 samples.

Results

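The miR-181 family was followed in small RNA libraries of mouse round spermatids (RS), haploid cells of the testis that elongate into sperm. Its 6 members were taken by name from the 1966 mature miRNA names of the count table. They are the guide products mmu-miR-181a-5p, mmu-miR-181b-5p, mmu-miR-181c-5p and mmu-miR-181d-5p and the opposite-arm products mmu-miR-181a-1-3p and mmu-miR-181a-2-3p. The species prefix is left out from here on. The study asked which miRNAs change in RS that lack the RNA helicase GRTH (DDX25) or its phosphorylated form, because spermatids of both mutants stop before they elongate. WT mice and GRTH knock-out (KO) mice gave 5 libraries each in 1 experimental batch, here called the KO batch. WT mice and GRTH knock-in (KI) mice, which carry an amino acid substitution and lack phosphorylated GRTH, gave 6 libraries each in another batch, the KI batch. All mice were 75 to 85 days old, and every library came from RS isolated from testes. Both mutations act in the whole animal and not in RS alone, and no other agent or allele is named for any group.

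The labels do not say whether each library came from a separate mouse, so the p-values measure the spread between libraries, which may be technical. Library totals ranged from 559957 to 3239357 counts of reads assigned to miRNAs. Totals were lower in KO, at 702129 ± 127541, than in WT of the KO batch, at 978178 ± 77789 (SD, n = 5 each). A name with 3 counts, the smallest amount taken as detectable, stands at 5.36 CPM in the shallowest library and at 0.926 CPM in the deepest, CPM being counts relative to the total of the library. The transcript of the GRTH gene is not a miRNA, so the loss of GRTH was not analysed here. The 15 germ cell miRNAs used as markers summed to between 191705 and 451312 CPM in every library. These miRNAs mark germ cells and do not tell RS from earlier germ cells.

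A miRNA gene is transcribed as a long RNA whose hairpin is cut into a short duplex. One strand, the guide, is loaded into an Argonaute protein, and the opposite strand is mostly discarded. The guide pairs with mRNAs through its seed, bases 2 to 8 from the 5′ end, so miRNAs with the same seed can bind the same sites. The miR-181 family is best known from the thymus, where miR-181a sets the sensitivity of the T cell receptor, and it is also found in vessel walls and brain. Its guides come from 6 hairpins in 3 pairs, each pair transcribed together.

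The mature sequences, from RefSeq on GRCm38.p6, are given here because they decide which locus a read can be assigned to. Capitals mark the seed. The guides come first.
miR-181a-5p: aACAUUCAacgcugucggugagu
miR-181b-5p: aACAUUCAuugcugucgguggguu
miR-181c-5p: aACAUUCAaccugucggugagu
miR-181d-5p: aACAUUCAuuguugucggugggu
The opposite-arm products follow, with miR-181c-3p, which is not a member, added for comparison.
miR-181a-1-3p: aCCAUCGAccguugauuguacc
miR-181a-2-3p: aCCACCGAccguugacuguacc
miR-181c-3p: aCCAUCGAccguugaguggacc

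The 4 guides shared the seed ACAUUCA, and no other of the 1675 table names with a RefSeq sequence had it. Counting positions from 1 at the 5′ end, with the first name's base before the position, miR-181a-5p and miR-181b-5p differed by A9U, C10U and A21G over 23 bases. miR-181b-5p and miR-181d-5p differed by C12U alone over 23 bases. Removing G11 from miR-181a-5p gave miR-181c-5p exactly. The opposite arms of the miR-181a hairpins differed by U5C and U16C, so U5C changes the seed. The seed of miR-181a-1-3p, CCAUCGA, was shared with miR-181c-3p, and the seed of miR-181a-2-3p with no other name.

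The hairpins lie at 3 places of GRCm38. miR-181a-5p is annotated at chr1:137966468-137966490 and at chr2:38852741-38852763, both on the plus strand. miR-181b-5p follows it at each place, at chr1:137966650-137966673 and chr2:38853845-38853868. The chromosome 1 pair sits within an intron of Gm4258, a non-coding transcript of the same strand. The chromosome 2 pair lies opposite an intron of Nr6a1, a gene for an orphan nuclear receptor of germ cells. miR-181c-5p at chr8:84178924-84178945 and miR-181d-5p at chr8:84178759-84178781 are on the minus strand in an intron of Nanos3, a germ cell gene for an RNA-binding protein. The guides of the first 2 places are identical in sequence, so their reads cannot be assigned to one or the other. The opposite arms differ, and miR-181a-1-3p at chr1:137966508-137966529 and miR-181a-2-3p at chr2:38852785-38852806 are specific to their locus.

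Both names with 2 loci had counts that were nearly always even numbers. miR-181a-5p was even in 21 of 22 libraries and miR-181b-5p in 20 of 22. The names with 1 locus were even in 12 libraries for miR-181c-5p and in 13 for miR-181d-5p. The counts of miR-181a-5p and miR-181b-5p are therefore given also divided by their 2 loci in the order of levels below.

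The family was a small part of the RS miRNA pool. The 4 guides together held 0.0242 ± 0.00355% of all counts in WT and 0.0270 ± 0.00644% in KO of the KO batch (SD, n = 5 each). In the KI batch they held 0.0252 ± 0.00467% in WT and 0.0255 ± 0.00481% in KI (SD, n = 6 each). With the counts of every name divided by its loci, the group means were 0.0210% to 0.0232%. By mean CPM as counted, miR-181a-5p ranked 176 of the 937 names with a count in the KO batch and 160 of 1060 in the KI batch. miR-181d-5p, the guide with the fewest counts before division by loci, ranked 264 and 270.

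miR-181a-5p, the product of both miR-181a hairpins, was the most abundant member. CPM here are scaled by TMM, a normalization that sets aside the names that differ most between libraries. It stood at 134, 66.0, 161, 122 and 138 CPM in the WT libraries of the KO batch and at 131, 158, 136, 135 and 84.8 CPM in KO. In the KI batch the 6 WT libraries ran from 98.1 to 206 CPM and the KI libraries from 123 to 211 CPM. In both batches the mutant and WT ranges overlapped, and 1 WT library in each lay well below the others. miR-181a-5p was above every other member in all 22 libraries as counted. Divided by its loci, it came to a mean of 62.1 CPM per locus in WT of the KO batch, and its range then overlapped that of miR-181c-5p in every group.

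miR-181c-5p came next, with 36.4, 53.4, 44.3, 33.8 and 30.4 CPM in the WT libraries of the KO batch and 42.7, 31.9, 34.6, 35.9 and 36.7 CPM in KO. In the KI batch it ran from 57.6 to 77.7 CPM in WT and from 50.7 to 82.3 CPM in KI. The KI batch lay higher than the KO batch for this guide, with almost no overlap between batches. Its WT and mutant ranges overlapped in both.

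miR-181b-5p stood at 26.3, 33.0, 33.2, 28.2 and 38.7 CPM in the WT libraries of the KO batch. KO was the more variable group, with 34.6, 53.2, 24.6, 20.1 and 16.96 CPM. In the KI batch it ran from 27.3 to 46.5 CPM in WT and from 20.9 to 37.7 CPM in KI. As counted, miR-181b-5p was below miR-181c-5p with no overlap in the KI batch, and the ranges of these neighbours overlapped in the KO batch. Divided by loci, it was the lowest guide by mean in 3 of the 4 groups, with 14.9 to 15.9 CPM per locus. In WT of the KI batch miR-181d-5p had the lower mean, and the ranges of the pair overlapped there.

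miR-181d-5p, the partner of miR-181c-5p in the Nanos3 intron, stood at 26.3, 26.2, 18.5, 16.9 and 21.2 CPM in the WT libraries of the KO batch. In KO it stood at 17.3, 33.7, 24.6, 30.1 and 16.96 CPM. KO replicates 2 and 4 lay above every WT library, and no KO library lay below WT. In the KI batch the WT libraries stood at 16.6, 16.98, 19.8, 13.2, 14.02 and 20.5 CPM. The KI libraries stood at 31.0, 19.02, 24.1, 25.2, 19.4 and 26.1 CPM. Only the lowest KI libraries, at 19.02 and 19.4 CPM, reached into the WT range.

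The opposite arms were rare. miR-181a-1-3p, from chromosome 1, had 143 counts over all libraries and miR-181a-2-3p, from chromosome 2, had 8. The chromosome 1 arm had more counts than the chromosome 2 arm in 21 of 22 libraries and made up 94.7% of the sum. This compares the discarded strands, and the share of each locus in miR-181a-5p itself cannot be read from it. miR-181a-2-3p had at least 1 count in 6 of 22 libraries and at most 2 in any, below the 3 counts taken as detectable. Of the other opposite arms, miR-181c-3p had 209 counts, and miR-181b-1-3p, miR-181b-2-3p and miR-181d-3p had 0 in every library. A count of 0 allows up to 3 counts in a library, and this covers counting error only.

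**Figure D1:**
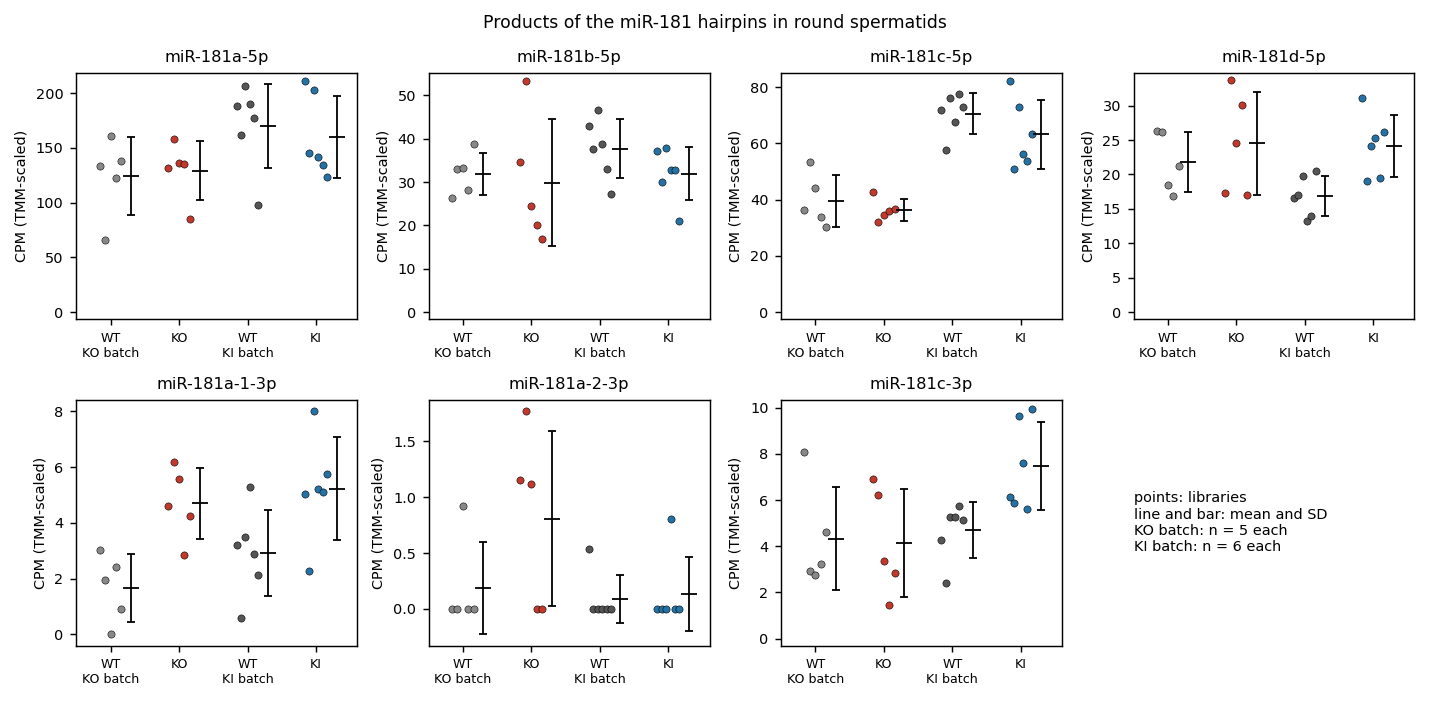
TMM-scaled CPM (y axis) of the 6 members and miR-181c-3p in each library, by genotype and batch, with the mean and SD beside the points. miR-181d-5p in KI (19.02 to 31.0 CPM) lies mostly above WT of its batch (13.2 to 20.5 CPM), and miR-181c-5p lies higher in the KI batch than in the KO batch.

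The first comparison asked which members change in RS without GRTH. In KO, 0 of the 4 members tested had an adjusted p under 0.1, which is the study's own threshold, where 41.9% of all 334 names tested did (edgeR quasi-likelihood test, Benjamini-Hochberg adjustment over all names tested). At an unadjusted p under 0.05 by edgeR the count was also 0 of 4, where 145 of all 334 names tested had such a p. DESeq2 called 0 of 4, and its share over all names was not counted. miR-181d-5p had the largest estimate of the guides, a log2 fold change of 0.22 (SE 0.24, adjusted p = 0.483 by edgeR). Its 95% interval, -0.29 to 0.73, includes the change found in KI. miR-181a-5p was at 0.09 (SE 0.22), miR-181b-5p at -0.02 (SE 0.28) and miR-181c-5p at -0.10 (SE 0.18). Their intervals were -0.38 to 0.56, -0.62 to 0.58 and -0.50 to 0.29. Without WT replicate 2 of the KO batch, the library low in miR-181a-5p, the estimate for miR-181a-5p turned to -0.07.

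The opposite arms were too rare for the KO fit, whose filter on low counts left out both members and miR-181c-3p. miR-181a-1-3p had 3, 2, 0, 3 and 1 counts in the WT libraries and 4, 7, 5, 2 and 3 counts in KO, although KO libraries were the smaller. That came to 1.66 ± 1.21 CPM in WT and 4.70 ± 1.29 CPM in KO (SD, n = 5 each). The ranges touched, with a highest WT library of 3.04 CPM and a lowest KO library of 2.87 CPM. All WT libraries were at or below 3 counts. With no filter, edgeR gave a log2 fold change of 1.45 (SE 0.61, adjusted p = 0.133). The edgeR fit of all 4 groups gave 1.51 (SE 0.57, adjusted p = 0.0499). miR-181a-1-3p passed the low-count filter of that fit through KO and KI libraries alone, the groups in which it was higher. That call therefore cannot be taken as support for a rise in KO. miR-181c-3p, which has the same seed, showed no such difference, with 4.32 ± 2.23 CPM in WT and 4.15 ± 2.33 CPM in KO.

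The second comparison asked which members change when GRTH is present but not phosphorylated. In KI, miR-181d-5p rose. It went from 16.8 ± 2.93 CPM in WT to 24.2 ± 4.50 CPM in KI (SD, n = 6 each), a log2 fold change of 0.54 (SE 0.15, 95% interval 0.22 to 0.87) or 1.46-fold, with an edgeR adjusted p of 0.0157. It was the only called member of the 5 tested, where 38% of all 387 names tested were called and 18.1% were called higher. The rise passed the threshold under every alternative run, including DESeq2 (adjusted p = 0.0117), scaling by library size alone (0.0080), no filter (0.0427) and leaving out each library in turn (0.0083 to 0.0365).

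The other guides did not pass in KI. miR-181c-5p, transcribed with miR-181d-5p, was at a log2 fold change of -0.15 (SE 0.13, 95% interval -0.42 to 0.13, edgeR adjusted p = 0.407). miR-181a-5p was at -0.08 (SE 0.18, interval -0.46 to 0.31) and miR-181b-5p at -0.21 (SE 0.16, interval -0.56 to 0.13). With scaling by library size alone, under which the median of all names tested stood at 0.0875, miR-181a-5p was at 0.0065.

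miR-181a-1-3p had 1 to 12 counts in the WT libraries of the KI batch and 5 to 20 in KI. Its level was 2.94 ± 1.55 CPM in WT and 5.24 ± 1.84 CPM in KI (SD, n = 6 each), and the ranges overlapped, from 0.607 to 5.27 CPM against 2.26 to 8.03 CPM. The log2 fold change was 0.80 (SE 0.36, 95% interval 0.04 to 1.57), and the edgeR adjusted p of 0.103 missed the threshold. The filter on low counts (3.95 CPM by library total here) was reached in 5 of 6 KI libraries and in 1 of 6 WT libraries, so this product entered the test through the group in which it was higher. With no filter the adjusted p was 0.190, and with DESeq2 it was 0.119. It passed with scaling by library size alone (0.0762), with all 4 groups in the fit (0.0778), without KI replicate 2 (0.0406) and without WT replicate 4 (0.0405). The fit of all 4 groups likewise took miR-181a-1-3p in through mutant libraries alone. Leaving out other single libraries took the adjusted p up to 0.222.

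miR-181c-3p, the opposite arm of the miR-181c hairpin, stood at 4.28, 2.43, 5.27, 5.27, 5.75 and 5.12 CPM in WT of the KI batch. In KI it stood at 6.14, 5.89, 9.63, 7.61, 5.63 and 9.93 CPM. All KI libraries but replicate 5 lay above every WT library. The log2 fold change was 0.64 (SE 0.23, 95% interval 0.14 to 1.14, edgeR adjusted p = 0.0513), a call that was lost with no filter (0.165) and without KI replicate 3 (0.111). This product had at most 24 counts in any library. Every KI library reached the filter cut of 3.95 CPM by library total, the lowest at 5.22 CPM. WT replicates 1 and 2 of the KI batch fell short of it, at 3.50 and 1.93 CPM. Its entry into the test thus rested more on the group in which it was higher.

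**Figure D2:**
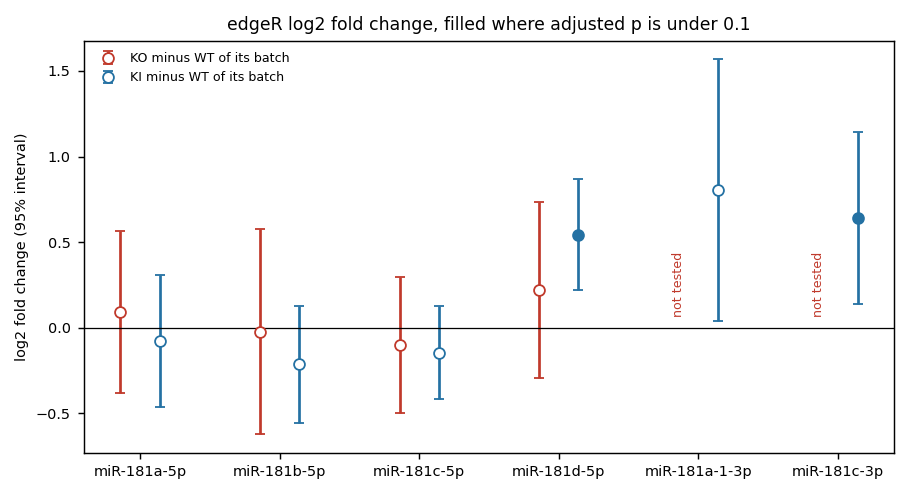
Log2 fold change (y axis) of each product in KO (red) and KI (blue) against WT of the same batch, with 95% intervals from edgeR; filled points passed an adjusted p under 0.1. miR-181d-5p at 0.54 and miR-181c-3p at 0.64 in KI are filled, and both 3p names shown were not tested in KO.

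Ratios within a library do not depend on how libraries are scaled, and 5 were compared in each mutant with two-sided exact permutation tests and Benjamini-Hochberg adjustment over the 10 tests. The ratio of miR-181c-5p to miR-181d-5p, the guides of the Nanos3 intron, fell in KI. As geometric means, WT of the KI batch had 4.18 counts of miR-181c-5p for each count of miR-181d-5p, and KI had 2.60. The log2 ratio was 2.09, 1.74, 1.93, 2.34, 2.45 and 1.82 in the WT libraries and 1.40, 1.40, 1.59, 1.15, 1.45 and 1.27 in KI. Every KI library was below every WT library. The difference was -0.69 (SE 0.13, exact permutation p = 0.00216, the smallest that 6 against 6 allows, adjusted p = 0.0216). Leaving out each library in turn gave -0.75 to -0.61, with adjusted p-values up to 0.0433. With same-numbered libraries taken as pairs, the adjusted exact sign-flip p was 0.156 and the call was lost. The smallest p that test allows with 6 pairs is 0.0312 before adjustment, so it could hardly pass.

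In KO the same ratio did not pass. Its log2 values were 0.46, 1.01, 1.24, 0.98 and 0.51 in WT and 1.27, -0.08, 0.49, 0.25 and 1.08 in KO, with the groups interleaved. The difference was -0.24 (SE 0.30, exact permutation p = 0.476, adjusted p = 0.680). Whether the change in this ratio differed between KO and KI was not tested. The WT mean in the KO batch, 0.84 ± 0.34 (SD, n = 5), was below the KI mean of 1.38 ± 0.15 (SD, n = 6). The batches thus differed in this ratio by more than KI and WT did within theirs.

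The ratio of the miR-181a opposite arms to miR-181a-5p passed the threshold in KO and missed it in KI. In KO its mean log2 value was -4.44 ± 0.46 against -5.79 ± 0.91 in WT (SD, n = 5 each). The difference was 1.36 (SE 0.46, exact permutation p = 0.0159, adjusted p = 0.0794), and it lost the call in 8 of the 10 tests without 1 library (1.09 to 1.61, adjusted p up to 0.132). In KI the difference was 0.97 (SE 0.42, exact permutation p = 0.0303, adjusted p = 0.101), and the ranges overlapped, from -7.47 to -5.11 in WT and from -5.86 to -4.36 in KI. The KO and KI values have their own WT libraries, and each rests on few counts of miR-181a-1-3p. The library with 0 of that product, WT replicate 3 of the KO batch, had the lowest log2 ratio of its group, -6.86.

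The remaining ratios did not pass in either mutant. miR-181a-5p to miR-181b-5p differed by 0.28 (SE 0.32, adjusted exact permutation p = 0.680) in KO and by 0.16 (SE 0.12, adjusted 0.446) in KI. The Nanos3 guides together, against miR-181a-5p and miR-181b-5p together, differed by -0.02 (SE 0.29, adjusted exact permutation p = 0.960) in KO and by 0.10 (SE 0.19, adjusted 0.733) in KI. miR-181a-1-3p to miR-181a-2-3p differed by 0.45 (SE 0.86) and 0.84 (SE 0.66), and rested on a product with at most 2 counts in a library. A further ratio, chosen after its values were seen, set the arms of the miR-181c hairpin against each other. It is given as a description with no test. The log2 ratio of miR-181c-3p to miR-181c-5p differed by 0.83 between KI (-3.71 to -2.64) and WT of its batch (-4.41 to -3.63), and by 0.05 between KO and WT.

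**Figure D3:**
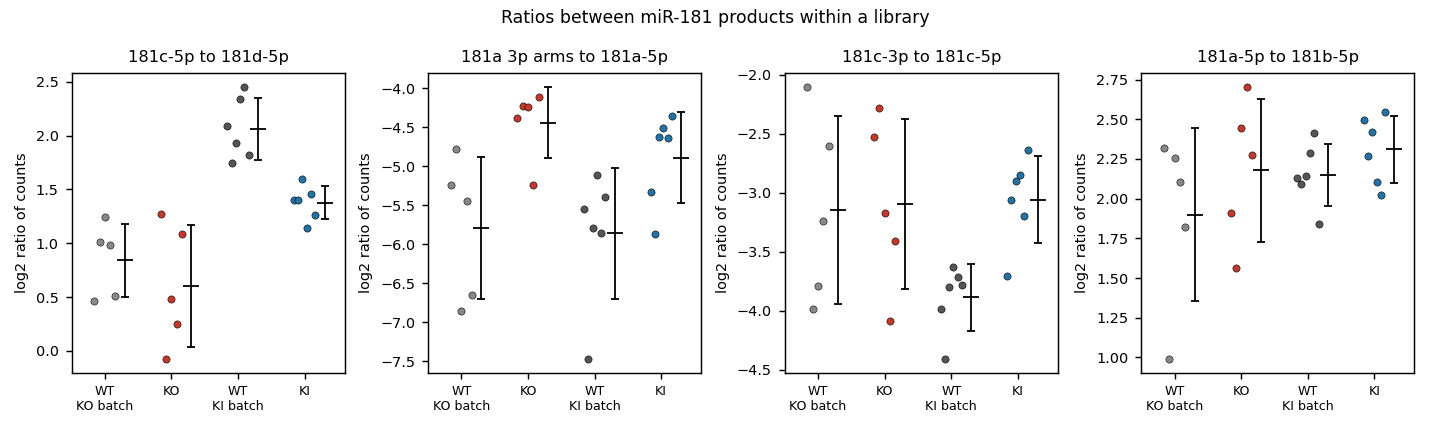
Log2 ratio of counts (y axis, 0.5 added to each count) of 4 pairs of products in each library, with the mean and SD of each group. The ratio of miR-181c-5p to miR-181d-5p shows no overlap between KI (1.15 to 1.59) and WT of its batch (1.74 to 2.45).

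Whether a member responded differently in KO and KI was tested as the difference of the effects in a fit of all 4 groups. 0 of the 5 members tested passed, and 0% of all 421 names tested did. By edgeR the lowest adjusted p of any name was 0.202, and 67 names had an unadjusted p under 0.05, none of them a member. DESeq2 called 0 of the 3 members to which it gave an adjusted p (miR-181a-5p, miR-181b-5p and miR-181c-5p). Its share over all names was not counted. KO minus KI was -0.33 for miR-181d-5p (SE 0.28, 95% interval -0.90 to 0.24, edgeR adjusted p = 0.572). The call in KI and its absence in KO therefore do not show that the effects differ. For miR-181a-1-3p, which passed the filter of this fit through mutant libraries alone, the difference was 0.72 (SE 0.67, interval -0.66 to 2.10).

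WT libraries of the batches were compared to show how far levels can be set side by side. miR-181c-5p was higher in the KI batch, with 70.6 ± 7.24 CPM (SD, n = 6) against 39.7 ± 9.23 CPM (SD, n = 5), and the edgeR adjusted p was 8.16e-04 for a log2 value of 0.78 (SE 0.16). miR-181d-5p was lower there by a log2 value of -0.42 (SE 0.19, edgeR adjusted p = 0.0813). Among all 383 names tested, 56.7% were called, 26.9% higher and 29.8% lower. The call of miR-181d-5p was lost with DESeq2 (0.206), with no filter (0.351) and without WT replicate 1, 2 or 5 of the KO batch (0.125 to 0.204). miR-181a-5p differed by 0.40 (SE 0.21, edgeR adjusted p = 0.128). It passed without WT replicate 6 of the KI batch (0.53, adjusted p = 0.0261), without WT replicate 3 of the KO batch (0.53, adjusted p = 0.0601) and with no filter (adjusted p = 0.00716). miR-181b-5p differed by 0.19 (SE 0.17, edgeR adjusted p = 0.391). Scaling by library size alone moved the median of all names to -0.34, and miR-181c-5p then stood at 0.46 and miR-181d-5p at -0.75. Batch, depth and date of the experiment cannot be told apart.

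Products were also followed from library to library, as deviations of log2(CPM + 1) from the group mean over the 22 libraries. miR-181a-5p and miR-181b-5p, which share 2 transcripts, moved together. Pearson's r was 0.551 (adjusted permutation p = 0.02 over 4 relations) and Spearman's rho 0.600 (adjusted permutation p = 0.015). Without the 2 libraries farthest from the median of miR-181a-5p, r was 0.658, and within the batches it was 0.392 (KO batch, n = 10) and 0.821 (KI batch, n = 12). miR-181c-5p and miR-181d-5p share a transcript too, and their r was 0.182 (adjusted permutation p = 0.56), -0.070 without the 2 farthest libraries. Within the batches it was -0.10 (KO batch) and 0.561 (KI batch). miR-181a-5p and miR-181a-1-3p had an r of 0.046 (adjusted permutation p = 0.88), over libraries in which the opposite arm had 0 to 20 counts. Reads shared between names can also make them move together, which was not tested for any of these relations.

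Among 176 names with a mean of at least 100 CPM in each batch, those most like miR-181a-5p were miR-99a-5p (rho 0.854), miR-10b-5p (0.761) and miR-101a-3p (0.733). The median over the names was -0.108. For miR-181b-5p they were let-7f-5p (rho 0.590), miR-148a-3p (0.580) and miR-199a-5p (0.555), against a median of -0.070. These values describe 22 libraries that share scaling and carry no test.

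Because miR-10b-5p and miR-199a-5p belong to the list of 8 vascular and stromal miRNAs used as markers of other testis cells, the guides were set against the summed level of that list, a relation chosen after these values were seen. The list ran from 1039 to 2712 CPM in WT and from 2526 to 5264 CPM in KO of the KO batch. In the KI batch it ran from 1871 to 2990 CPM in WT and from 2932 to 6401 CPM in KI. In KO 5 of its 6 names tested rose, where 21.3% of all names tested did, and in KI also 5 of 6, where 18.1% did. Of the 8 blood and immune names tested, 4 rose and 0 fell in KO, and 6 rose and 1 fell in KI. Of the 15 germ cell names, 1 rose and 9 fell in KO, and 0 rose and 8 fell in KI. Among all names tested, 20.7% fell in KO and 19.9% in KI. In bulk RNA, fewer cells of a type and less RNA per cell cannot be told apart.

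Across the 22 libraries, as deviations from group means, Pearson's r between miR-181a-5p and the summed list was 0.835. This value is a description with no test, since the list holds miR-10b-5p, whose likeness to miR-181a-5p prompted it. Without miR-10b-5p and both arms of the miR-199a hairpin, which left 5 names, r was 0.505, Spearman's rho was 0.452, and r was 0.733 in the KO batch and 0.236 in the KI batch. With the whole list r was 0.912 in the KO batch and 0.740 in the KI batch. The 3 names were left out together, so the part of each in the lower values was not tested. The libraries lowest in miR-181a-5p were WT replicate 2 and KO replicate 5 of the KO batch and WT replicate 6 and KI replicate 6 of the KI batch. The first 3 were also the lowest of their groups in the whole list, at 1039, 2526 and 1871 CPM. KI replicate 6, at 3084 CPM, was next to the lowest of its group. The list had the higher mean in both mutants, while miR-181a-5p was not called in either.

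For the other guides, r with the same 5 names was 0.383 for miR-181b-5p, -0.056 for miR-181c-5p and -0.041 for miR-181d-5p, again with no test. Against the blood and immune list it was 0.430 for miR-181b-5p, 0.457 for miR-181c-5p and 0.336 for miR-181d-5p. In the KO batch these values were 0.673, 0.312 and 0.070, and in the KI batch 0.117, 0.596 and 0.673. The blood and immune list had a higher mean in KI, 6351 ± 729 CPM (5168 to 7240), than in WT of its batch, 5147 ± 317 CPM (4722 to 5598; SD, n = 6 each). It was also higher in KO, 6740 ± 884 against 6069 ± 353 CPM (SD, n = 5 each), where miR-181d-5p was not called. The whole vascular and stromal list was higher in KI too, 4339 ± 1259 against 2594 ± 431 CPM (SD, n = 6 each). Its r with miR-181d-5p in the KI batch was -0.074. The part of other cell types in the rise of miR-181d-5p was not tested.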

How the data were processed

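miRNA-seq counts of 22 RS libraries were used (columns of other libraries: 0). The deposited table holds counts, which the authors made by trimming adapters (cutadapt 3.4), aligning to GRCm38 with Bowtie2 2.4.2 (local mode, many alignments per read allowed) and counting on mature miRNAs with featureCounts of Subread 2.0.1, by strand. Small RNA was extracted and prepared with Qiagen kits. Reads of a name with 2 loci may be counted at each, so its level can be up to the number of its loci too high against names with 1 locus. Of the 35 names with 2 loci and at least 1000 counts, 13 were even in 20 or more libraries, against 0 of 202 names with 1 locus. The counting command names no molecular identifiers, so floors cover counting error only.

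The 6 members are the names listed for the family. They and the marker lists were chosen with earlier results of these data known. Also named were the other products of the same hairpins, names with the same seed, and the 3 names most like miR-181a-5p and miR-181b-5p. Counts were tested in edgeR 4.0.16 by quasi-likelihood (R 4.3.3, TMM, filterByExpr), with Benjamini-Hochberg adjustment over all names tested and calls at an adjusted p under 0.1. Each mutant was compared with the WT of its batch in its own fit, as in the study, which used DESeq2 (here 1.42.0, an alternative). The difference of effects used all 4 groups. On simulated counts with 200 names changed by a log2 value of 1, the fits recovered 99% (KO, 334 names), 99% (KI, 387), 82% (difference of effects, 421) and 94.5% (WT between batches, 383). These shares cover names of all levels at that size of change. They say nothing of smaller changes, such as those estimated for the guides in the mutants. Ratios had 0.5 added to each count. Relations used 100000 permutations within groups. No library was a duplicate of another, with a chi-square per degree of freedom of at least 7.28 between replicates. Of the loci with a RefSeq sequence, 1734 of 1740 had the same coordinates there. Alternatives were scaling by library size, no filter (at least 1 count), DESeq2, all groups in 1 fit, a replicate block, 1 count added, counts divided by loci and leaving out each library. Permutation tests were written in Python 3.11.15 with numpy 2.4.6, and ranks came from scipy 1.17.1.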

Additional observations from a re-analysis of the deposited data

Results flagged for a closer look

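Single libraries that stood apart from their group were sought in 56 sets of values of the products, their ratios and the guide share. Chance would give about 2.8 (1 in 20) if the sets were independent and continuous. Sets here share libraries and counts, and any single count is flagged where all other libraries stand at 0. The number found therefore cannot be read against 2.8. In 10 sets the highest or lowest library lay farther from the rest than Dixon's 95% limit. miR-181a-5p was low in WT replicate 6 of the KI batch, at 6.63 on the log2(CPM + 1) scale against 7.34 to 7.70 in the others. The same library was high in the log2 ratio of miR-181c-5p and miR-181d-5p to miR-181a-5p and miR-181b-5p, at -0.42 against -1.50 to -1.19, and KI replicate 6 was high in that ratio at -0.69 against -1.32 to -1.10. Both libraries carry the number 6 of the KI batch.

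The opposite arms gave the others, at counts near 0. miR-181a-2-3p was above 0 in 1 library of its group in WT replicate 3 of the KO batch (0.94), WT replicate 1 of the KI batch (0.62) and KI replicate 4 (0.85). Its 1 count in WT replicate 3 of the KO batch, beside 0 of miR-181a-1-3p, gave a log2 ratio of -1.58 between these arms, against 1.58 to 2.81. miR-181c-3p was low in WT replicate 2 of the KI batch, at 1.78 against 2.401 to 2.76. The log2 ratio of the miR-181a opposite arms to miR-181a-5p was low in that library, at -7.47 against -5.86 to -5.11, and in KO replicate 4, at -5.24 against -4.38 to -4.11.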

How the results depend on the processing

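The direction of miR-181d-5p in KI and its call did not change under any alternative run. Called members in KI were 2 in place of 1 with scaling by library size alone, with all 4 groups in 1 fit and with the replicate block, and 1 to 2 without 1 library. In KO all 4 groups in 1 fit called 1 member, miR-181a-1-3p, which passed the filter of that fit through mutant libraries alone. Between WT groups DESeq2 called 1, and 1 to 3 were called without 1 library. The share of all names called under these alternatives was not counted, so the numbers of members called are not a result about the family. The main fits called 41.9% of all names tested in KO, 38% in KI and 56.7% between WT groups. Estimates near 0 turned: by library size alone, miR-181a-5p in KI was 0.0065, miR-181b-5p in KO 0.097, miR-181c-5p in KO 0.010 and miR-181b-5p between WT groups -0.14. For KO minus KI, miR-181c-5p was -0.023 with DESeq2 and -0.039 with no filter. Without 1 library, estimates ran in KO from -0.068 to 0.20 (miR-181a-5p), -0.36 to 0.11 (miR-181b-5p) and -0.19 to 0.026 (miR-181c-5p), and for KO minus KI from -0.22 to 0.28 (miR-181b-5p) and -0.078 to 0.18 (miR-181c-5p). Of the ratios, 1 was called with counts divided by loci, 0 with the replicate block and 1 to 4 without 1 library. The miR-181a opposite arms to miR-181a-5p in KO stood at 1.35 (adjusted exact permutation p = 0.101) by loci, and without 1 library at 1.09 to 1.61 in KO and 0.65 to 1.17 in KI. Without 1 library, miR-181a-1-3p to miR-181a-2-3p in KO ran from -0.35 to 0.75 and the Nanos3 guides to the others from -0.13 to 0.23 in KO and 0.0097 to 0.26 in KI, called without WT replicate 6 of the KI batch. miR-181c-3p in KO ran from -0.87 to 0.77 CPM and its ratio to miR-181c-5p from -0.16 to 0.31. The causes were not tested. Correlations of same-numbered libraries ran from -0.20 to 0.30 in the KO batch (mean 0.050) and from -0.12 to 0.54 in the KI batch (mean 0.18). In the KO batch 2 of 5 correlated best with their own number, and in the KI batch 3 of 6. These values do not settle whether the numbers pair the libraries. With pairs as the block, the ratio of miR-181c-5p to miR-181d-5p in KI was -0.69 (exact sign-flip adjusted p = 0.156) and that of the miR-181a opposite arms to miR-181a-5p in KO 1.36 (0.208), while miR-181a-1-3p in KI was called (0.83, edgeR adjusted p = 0.0503) and no other call of a member changed. The smallest p that sign flips of 5 or 6 pairs allow is 0.0625 or 0.0312, before adjustment over 10 tests, so losing a call there says nothing about stability. Depth limits the opposite arms: miR-181a-1-3p had 3 or fewer counts in 8 of 22 libraries.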
